A study of Mus musculus with 11 samples.

Results

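The genes described here are 10 genes that govern the passage of a cell through G1 into DNA synthesis: the D-type cyclin genes *Ccnd1*, *Ccnd2* and *Ccnd3*, the genes of their kinases *Cdk4* and *Cdk6*, the E-type cyclin genes *Ccne1* and *Ccne2*, the gene of their kinase *Cdk2*, the transcription factor gene *Myc* and the phosphatase gene *Cdc25a*. They were chosen by symbol and are 10 of the 55536 genes in the tables. All 10 passed the filter on low counts in every comparison. The RNA came from pancreatic islets of wild type C57BL/6J female mice that were 9 weeks old at the start of the study. Mice labelled multipara had completed 3 consecutive pregnancies and were studied 3 weeks after the last delivery, and mice labelled virgin were of the same age without a pregnancy. The pups were taken from the cage, to limit the effects of lactation. The 11 libraries comprised 3 virgin and 4 multipara libraries from mice injected with S-961, a peptide that blocks the insulin receptor, and 2 virgin and 2 multipara libraries from mice without it. The libraries measured whole islets, and in such bulk RNA fewer cells of a type and less RNA per cell cannot be told apart.

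D-type cyclins are made in response to mitogens and activate CDK4 and CDK6, which phosphorylate the retinoblastoma protein and free E2F transcription factors. E2F factors drive the genes of the E-type cyclins, whose complexes with CDK2 complete that phosphorylation and start DNA synthesis. MYC raises the output of growth genes and of several G1 regulators, and CDC25A removes inhibitory phosphates from CDK2. In mouse islets, cyclin D2 and CDK4 are known for their need in the postnatal growth of the beta cell mass.

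Total estimated counts ran from 22028507 to 32234146 per library, and levels are given as CPM, the count of a gene relative to the scaled total of its library, with all 11 libraries scaled together. Of all counts, 35.3% to 41.4% were from the insulin genes *Ins1* and *Ins2* in untreated libraries and 13.2% to 20.7% after S-961. The summed level of 10 markers of acinar cells, the enzyme-secreting cells around the islets, was 106 to 169 CPM in untreated libraries and 1744 to 11547 CPM after S-961, and 9 of the 10 markers were higher in every S-961 library than in every untreated library. Whether treated and untreated libraries were made together is not given in the sources used here, so a batch and the treatment cannot be told apart. The library labelled multipara untreated 1 had 817 CPM of 6 summed macrophage markers against 144 to 179 CPM in the other untreated libraries, 212 CPM of 5 lymphocyte markers against 24.6 to 34.4 CPM, and 2386 CPM of 5 red cell markers against 158 to 487 CPM. *Lrrc55* was at 24.9 and 22.8 CPM in the untreated libraries labelled multipara and at 0.73 and 0.85 CPM in those labelled virgin. After S-961 the order of *Lrrc55* was the opposite: the virgin label stood at 7.54, 6.82 and 5.34 CPM and the multipara label at 0.60, 0.32, 1.96 and 4.43 CPM. By a chi-square statistic per gene, multipara S-961 4 lay closest to virgin S-961 1 and 2, at distances of 7.52 and 8.90, while its distances from multipara S-961 1 to 3 were 41.5 to 68.1. Distances of such size also occurred inside the virgin label, where after S-961 replicate 3 differed from replicates 1 and 2 by 42.0 and 45.9. Replicate 1 of the multipara label was nearer to both of these, with 37.3 and 33.3. The statistic was summed over raw counts, so genes with many counts, such as insulin and acinar enzyme genes, weigh heavily in it. Acinar sums were 4283 CPM in multipara S-961 4, 4947 and 6521 CPM in virgin S-961 1 and 2, and 1744 CPM in virgin S-961 3. The part of cell make-up in the distances was not tested. The distances thus did not sort the treated libraries by label. Groups are therefore named by label throughout, and each direction between parity groups after S-961 is a direction between labels. The paper reports *Cdk1* and *Cdk2* as lower and *Lrrc55* as higher in islets of multiparous mice given S-961. It also reports many Ki-67-stained beta cells in virgin mice given S-961 and few in multiparous ones. By label, *Cdk1*, *Cdk2* and *Lrrc55* lie the other way here, and none of them was called by edgeR between the labels. *Mki67*, the RNA of Ki-67, was at 3.04 to 13.8 CPM in virgin S-961 and 3.51 to 6.54 CPM in virgin untreated libraries of whole islets. By edgeR its log2 fold change with S-961 was 0.43 (adjusted p = 0.813) under the virgin and 1.33 (adjusted p = 0.384) under the multipara label.

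Per kilobase of exon, *Ccnd2* and *Cdk4* were the most abundant messages of the group in untreated islets. *Ccnd2* averaged 59.3 ± 9.49 CPM per kilobase (SD, n = 4), *Cdk4* 44.2 ± 1.20 and *Ccnd1* 20.6 ± 1.69. *Ccnd3* followed with 5.74 ± 0.784, *Myc* with 2.60 ± 1.31 and *Cdc25a* with 2.28 ± 0.177 CPM per kilobase. The lowest were *Ccne2* (0.877 ± 0.203), *Ccne1* (0.797 ± 0.349), *Cdk2* (0.408 ± 0.168) and *Cdk6* (0.119 ± 0.128). The ranges of neighbours overlapped for *Myc* and *Cdc25a* and from *Ccne2* down to *Cdk6*, and the other neighbours in this order did not overlap. After S-961 the order per kilobase was *Ccnd2* (63.0 ± 10.3, n = 7), *Ccnd1* (40.3 ± 8.21), *Cdk4* (33.6 ± 4.18), *Myc* (13.8 ± 1.74), *Ccnd3* (4.90 ± 0.346), *Cdc25a* (4.67 ± 0.939), *Ccne2* (3.01 ± 1.41), *Ccne1* (2.59 ± 1.47), *Cdk2* (0.935 ± 0.567) and *Cdk6* (0.117 ± 0.0306). There *Cdk4* and *Myc*, *Myc* and *Ccnd3*, and *Cdk2* and *Cdk6* did not overlap, and the other neighbours did.

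**Figure D1:**
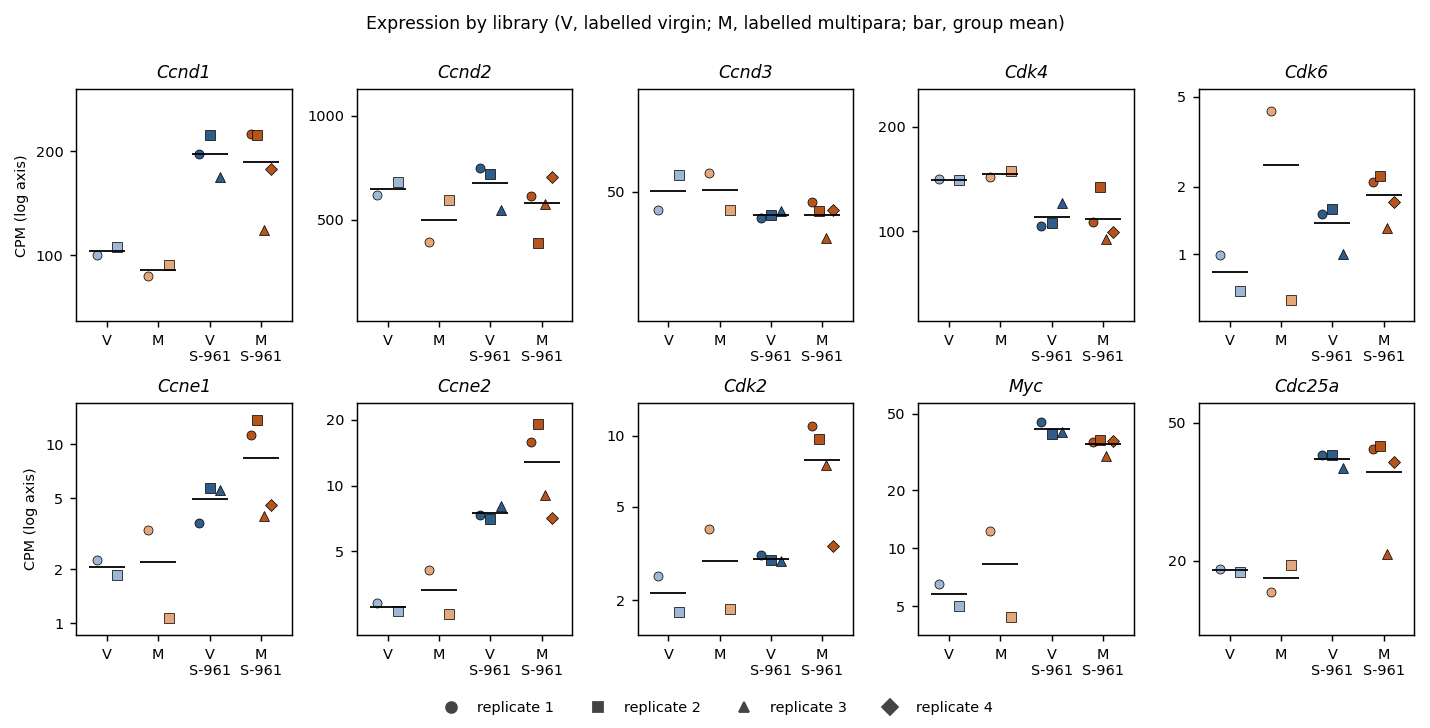
CPM of each gene in each library on a log axis, by group (V, labelled virgin; M, labelled multipara), with the group mean as a bar and the replicate number as the symbol. Every S-961 library lay above every untreated library for *Ccnd1*, *Ccne1*, *Ccne2*, *Myc* and *Cdc25a* and below for *Cdk4*.

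The comparison of S-961 with no treatment asks how the G1 genes stand in islets of mice whose insulin receptor is blocked. The paper reports that S-961 made virgin and multiparous mice glucose intolerant. The block within islets and the altered glucose handling of the mouse cannot be told apart here. Of the 10 genes, *Myc*, *Cdc25a*, *Ccnd1* and *Ccne2* rose among libraries labelled virgin, and none fell. A gene was called where the quasi-likelihood test of edgeR gave an adjusted p under 0.05, with adjustment over all genes tested. The background was high, since 36.6% of all 17969 genes tested were called in this comparison, 18.9% higher and 17.7% lower. Among libraries labelled multipara the same test called 7 of the 10 genes, with *Myc*, *Ccne2*, *Ccnd1*, *Cdc25a*, *Ccne1* and *Cdk2* higher and *Cdk4* lower, where 37.7% of all genes were called, 18.2% higher and 19.5% lower. The median log2 fold change of the 10 genes was 0.82 under the virgin label and 1.03 under the multipara label, against -0.04 and 0.03 over all genes tested. With the parity labels not used, a fit chosen after seeing the data because of the *Lrrc55* values, 7 S-961 libraries against 4 untreated libraries gave 6 higher and 1 lower of the 10, and 52.2% of all genes were called, 26.2% higher and 26% lower. In that comparison 5 of the 10 genes lay above and 1 below without overlap of the libraries, against 36.5% of all genes without overlap, 17.4% above and 19.1% below. Without either library labelled virgin untreated, most calls under the virgin label were lost, in fits with 1 library left in that group. Under the multipara label 4 genes stayed called without multipara S-961 1, where 2614 of all 17778 genes tested were called higher and 2731 lower. Calls under that label were also lost without multipara untreated 1 or 2, again with 1 library left in the group. Calls over all genes also fell in each of these fits. Each p-value sets a difference against the spread between libraries, and these fits pooled that spread over all 11 libraries. The S-961 libraries were described with as many mice as libraries, and for the untreated libraries the sources used here do not give whether they came from separate mice.

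**Figure D2:**
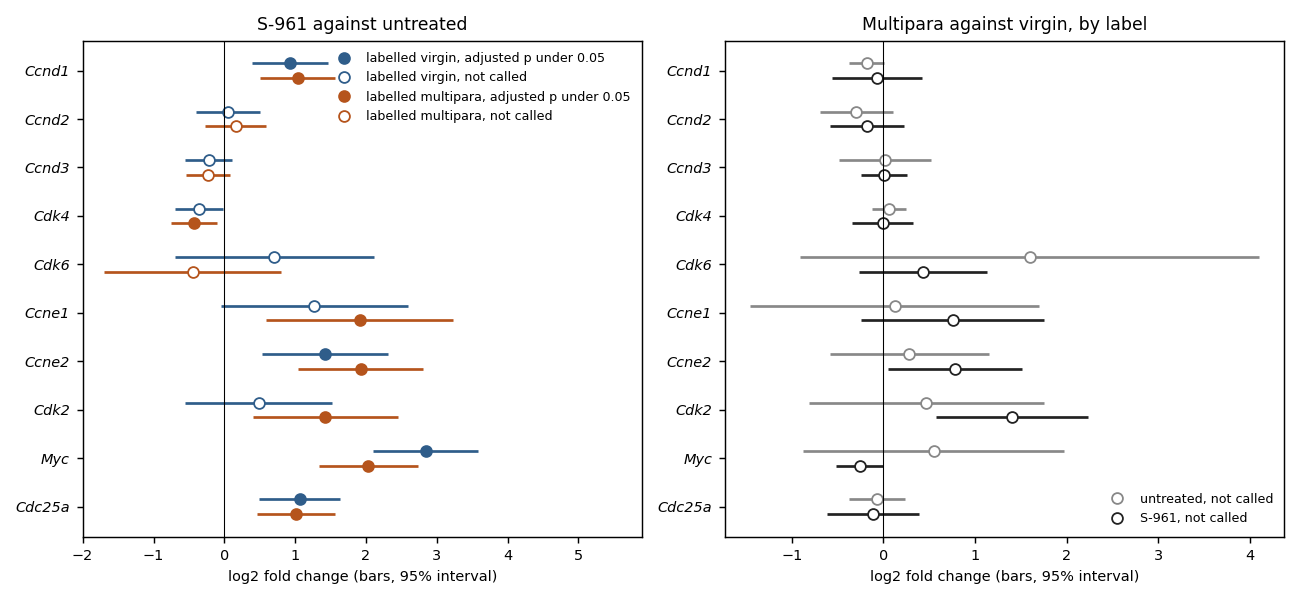
Log2 fold change of each gene (x axis) with its 95% interval, S-961 against untreated under each parity label on the left and multipara against virgin with and without S-961 on the right; filled points passed an adjusted p of 0.05. On the left *Myc* lay farthest from 0 under both labels (2.84 and 2.03), and on the right no point was filled.

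*Ccnd1* (chr7:144929931-144939925 of GRCm38, minus strand), the cyclin gene most directly driven by growth factor signals, was about doubled after S-961. It was at 101 and 105 CPM in virgin untreated libraries and at 87.1 and 94.1 CPM in multipara untreated libraries. After S-961 it stood at 197, 222 and 168 CPM under the virgin label and at 224, 222, 119 and 178 CPM under the multipara label. All 7 S-961 libraries were higher than all 4 untreated libraries, and multipara S-961 3 was the lowest of the 7. The rise was 1.90-fold under the virgin label (log2 fold change 0.93, SE 0.25, adjusted p = 0.0135) and 2.05-fold under the multipara label (log2 fold change 1.03, SE 0.24, adjusted p = 0.00683). The second call was lost without multipara untreated 1 (log2 fold change 0.98, adjusted p = 0.0608). *LTO1*, which overlaps *Ccnd1* on the other strand, was at 14.7 to 29.5 CPM in S-961 and at 25.6 to 31.2 CPM in untreated libraries.

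*Ccnd2* (chr6:127125162-127152193, minus strand), the D-type cyclin gene with the highest level in these islets, showed no such difference. It stood at 590.4 and 641 CPM in virgin untreated libraries, at 432 and 569 CPM in multipara untreated libraries, at 706, 676 and 532 CPM in virgin S-961 libraries and at 587, 430.0, 557 and 663 CPM in multipara S-961 libraries. The treated and untreated libraries overlapped under both labels. The log2 fold change with S-961 was 0.05 (95% interval -0.40 to 0.51, adjusted p = 0.869) under the virgin label and 0.16 (95% interval -0.27 to 0.59, adjusted p = 0.542) under the multipara label. The antisense gene *Gm43126*, which overlaps *Ccnd2* on the other strand, was at 37.0 to 53.0 CPM in untreated and at 6.15 to 14.1 CPM in S-961 libraries.

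*Ccnd3* (chr17:47505051-47599691, plus strand), the third D-type cyclin gene, ran from 44.4 to 56.7 CPM in untreated libraries with a median of 50.2 CPM, and from 36.9 to 46.6 CPM with a median of 44.0 CPM after S-961. The ranges overlapped. Its log2 fold change was -0.22 (95% interval -0.55 to 0.10) under the virgin label and -0.24 (95% interval -0.55 to 0.07) under the multipara label, with adjusted p = 0.266 and 0.204. *Bysl*, a protein-coding gene that overlaps *Ccnd3* on the other strand, was at 12.5 to 31.0 CPM in S-961 and at 11.6 to 14.3 CPM in untreated libraries.

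The make-up of the D-type cyclin messages differed with treatment in these values. Per kilobase, *Ccnd1* made up 23.1% to 26.1% of the 3 messages in untreated libraries and 28.5% to 48.2% after S-961, and *Ccnd2* made up 64.8% to 70.7% and 46.7% to 66.8%. The *Ccnd1* shares did not overlap, and in multipara S-961 2 the *Ccnd1* share was above the *Ccnd2* share. The log2 ratio of *Ccnd1* to *Ccnd2* CPM was -2.52 ± 0.14 (SD, n = 4) in untreated and -1.65 ± 0.41 (n = 7) in S-961 libraries. The difference within parity labels was 0.85, and an exact permutation test (two-sided, 150 splits within parity, smallest possible p 0.00667) gave p = 0.0133, and with an adjusted p of 0.08 over the 6 ratio comparisons made.

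**Figure D3:**
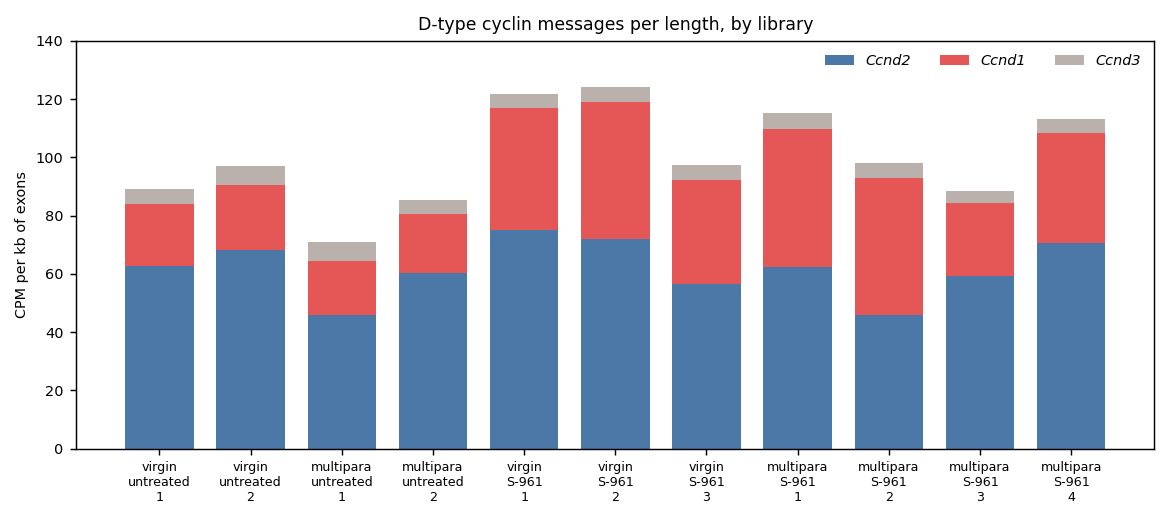
Level of the 3 D-type cyclin messages per library in CPM per kilobase of exons, stacked from 0. The *Ccnd1* segment is wider in the 7 S-961 libraries (25.2 to 47.5 CPM per kilobase) than in the 4 untreated ones (18.5 to 22.4), while the *Ccnd2* segments overlap (45.7 to 75.01 and 45.9 to 68.1).

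*Cdk4* (chr10:127063534-127067920, plus strand), the main D-cyclin kinase gene in these libraries, was lower after S-961. It stood at 141 and 140.4 CPM in virgin untreated and at 143 and 149 CPM in multipara untreated libraries. With S-961 the levels were 103, 105 and 120.4 CPM under the virgin label and at 107, 134, 94.7 and 99.3 CPM under the multipara label. Every S-961 library was below every untreated one, and multipara S-961 2 was nearest to them. *Cdk4* fell among libraries labelled multipara (log2 fold change -0.43, SE 0.14, adjusted p = 0.0390), while the difference of -0.36 (SE 0.15) under the virgin label was not called (adjusted p = 0.0894). The multipara call was lost without each of 9 libraries in turn, over all of which the log2 fold change was -0.51 to -0.37. *Tspan31*, a protein-coding gene that overlaps *Cdk4* on the other strand, was at 42.4 to 75.8 CPM in S-961 and at 60.0 to 66.8 CPM in untreated libraries. The bases before the *Cdk4* start are shown because every S-961 library had lower *Cdk4* and higher *Myc* than every untreated library. Among multipara S-961 libraries both genes were lowest in replicate 3 and highest in replicate 2. Among virgin S-961 libraries, replicate 1 had the highest *Myc* and the lowest *Cdk4*. Whether MYC acts on *Cdk4* was not tested. Capitals mark CACGTG, the E-box word that MYC with its partner MAX is known to bind. The sequence is from RefSeq for GRCm38.p6, chr10:127063285-127063534, plus strand, 5′ to 3′.
*Cdk4*: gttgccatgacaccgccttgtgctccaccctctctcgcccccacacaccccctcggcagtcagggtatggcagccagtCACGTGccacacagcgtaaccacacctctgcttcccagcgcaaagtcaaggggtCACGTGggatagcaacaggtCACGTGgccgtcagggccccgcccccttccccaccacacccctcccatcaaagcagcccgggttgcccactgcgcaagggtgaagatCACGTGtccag
The word, which reads the same on both strands, starts 172, 118, 98 and 11 bases before the start. At least 1 copy was in 6.02% of 32851 promoter windows of 250 bases and at least 4 copies were in 7 of them (0.0213%). A match describes these letters and not binding.

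*Cdk6* (chr5:3341485-3531008, plus strand), the other D-cyclin kinase gene, was low and uneven. It stood at 0.99, 0.69, 4.33 and 0.63 CPM in virgin untreated 1 and 2 and multipara untreated 1 and 2, and at 1.003 to 2.24 CPM with a median of 1.60 CPM after S-961. The highest value was in multipara untreated 1, the library with the high macrophage and lymphocyte markers, and their part in the value was not tested. Per kilobase *Cdk6* was 0.0975% to 0.688% of the sum of *Cdk2*, *Cdk4* and *Cdk6* in untreated and 0.191% to 0.430% in S-961 libraries. The log2 fold change with S-961 was 0.70 (95% interval -0.70 to 2.11, adjusted p = 0.417) under the virgin label and -0.45 (95% interval -1.70 to 0.80, adjusted p = 0.553) under the multipara label. Without multipara untreated 1 the latter was 1.54 (adjusted p = 0.0746).

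*Ccne2* (chr4:11191351-11204779, plus strand), an E-type cyclin gene and a classic E2F target, was higher after S-961. It stood at 2.91 and 2.66 CPM in virgin untreated and at 4.11 and 2.58 CPM in multipara untreated libraries. After S-961 it stood at 7.33, 7.0 and 8.09 CPM under the virgin label and at 15.9, 19.1, 9.06 and 7.13 CPM under the multipara label. The treated and untreated libraries did not overlap, and multipara S-961 1 and 2 were the highest. The rise was 2.68-fold under the virgin label (log2 fold change 1.42, SE 0.40, adjusted p = 0.0183) and 3.80-fold under the multipara label (log2 fold change 1.92, SE 0.40, adjusted p = 0.00406). *Ints8*, which overlaps *Ccne2* on the other strand, was at 26.4 to 33.6 CPM in S-961 and at 21.2 to 27.5 CPM in untreated libraries.

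*Ccne1* (chr7:38097984-38107534, minus strand), the second E-type cyclin gene, stood at 2.26 and 1.85 CPM in virgin untreated and at 3.31 and 1.07 CPM in multipara untreated libraries. The S-961 libraries were at 3.62, 5.70 and 5.56 CPM under the virgin label and at 11.2, 13.6, 3.99 and 4.58 CPM under the multipara label. All 7 S-961 libraries were above all untreated ones, with multipara S-961 1 and 2 apart from the rest. *Ccne1* rose under the multipara label (log2 fold change 1.91, SE 0.60, adjusted p = 0.0279), a call that was lost without multipara S-961 1 (1.74) or multipara untreated 2 (1.34). Under the virgin label the log2 fold change was 1.27 (SE 0.60, adjusted p = 0.121), and it was called in a fit to the virgin libraries alone (1.29, SE 0.28). That fit called 4465 genes higher and 4034 lower of all 16587 tested. The fit to all libraries called 3392 higher and 3178 lower of 17969. Per kilobase *Ccne1* was 35.2% to 51.4% of the E-type cyclin messages in untreated and 36.6% to 51.7% in S-961 libraries.

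*Cdk2* (chr10:128697939-128705031, minus strand), the kinase gene of the E-type cyclins, stood at 2.53 and 1.77 CPM in virgin untreated and at 4.02 and 1.83 CPM in multipara untreated libraries. After S-961 it stood at 3.12, 2.96 and 2.94 CPM under the virgin label and at 11.03, 9.69, 7.54 and 3.40 CPM under the multipara label. Only multipara S-961 1, 2 and 3 lay above all untreated libraries. *Cdk2* rose under the multipara label (log2 fold change 1.42, SE 0.46, adjusted p = 0.0331), a call lost without multipara S-961 1 (1.22), multipara S-961 2 (1.35) or multipara untreated 2 (0.98). Under the virgin label the log2 fold change was 0.48 (95% interval -0.55 to 1.52, adjusted p = 0.453).

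*Myc* (chr15:61985391-61990374, plus strand) had the largest fold change of the 10 genes under both parity labels. It stood at 6.54 and 5.04 CPM in virgin untreated and at 12.2 and 4.41 CPM in multipara untreated libraries. With S-961 it was at 45.5, 39.2 and 40.0 CPM under the virgin label and at 35.7, 36.4, 30.1 and 36.2 CPM under the multipara label. The lowest S-961 library was far above the highest untreated library, which was multipara untreated 1. The rise was 7.17-fold under the virgin label (log2 fold change 2.84, SE 0.34, adjusted p = 0.000277) and 4.10-fold under the multipara label (log2 fold change 2.03, SE 0.32, adjusted p = 0.000878). It was called in every alternative of both comparisons, and without multipara untreated 1 the multipara value was 2.97.

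*Cdc25a* (chr9:109875579-109893895, plus strand) stood at 19.0 and 18.6 CPM in virgin untreated and at 16.3 and 19.5 CPM in multipara untreated libraries. After S-961 it stood at 40.5, 40.2 and 37.1 CPM under the virgin label and at 42.1, 42.7, 20.9 and 38.6 CPM under the multipara label. All 7 S-961 libraries were above the untreated ones, but multipara S-961 3 was close to them and the other 6 were well above. *Ccnd1* was lowest in the same S-961 library. The rise was 2.09-fold under the virgin label (log2 fold change 1.06, SE 0.26, adjusted p = 0.00889) and 2.02-fold under the multipara label (log2 fold change 1.02, SE 0.25, adjusted p = 0.00963). The multipara call was lost without multipara untreated 1 (log2 fold change 0.89, adjusted p = 0.0907).

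Promoter windows were found for 6 of the 10 genes, namely *Ccnd3*, *Cdk4*, *Cdk6*, *Ccne1*, *Cdk2* and *Cdc25a*. The windows of *Cdc25a* and *Cdk2*, which rose under the multipara label together with the E-type cyclin genes, are shown because each holds 1 of the 4 E2F words searched on both strands, TTTCCCGC, TTTGGCGC, TTTCGCGC and TTTGCCGC. Capitals mark the word, and both windows are from RefSeq for GRCm38.p6 and read 5′ to 3′ on the strand of the gene, *Cdc25a* at chr9:109875329-109875578 on the plus strand and *Cdk2* at chr10:128705052-128705301 on the minus strand.
*Cdc25a*: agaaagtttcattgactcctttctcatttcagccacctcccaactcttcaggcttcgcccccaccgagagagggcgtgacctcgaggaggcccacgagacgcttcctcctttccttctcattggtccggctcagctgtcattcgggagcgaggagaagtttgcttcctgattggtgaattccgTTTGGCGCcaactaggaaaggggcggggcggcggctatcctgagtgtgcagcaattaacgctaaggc
*Cdk2*: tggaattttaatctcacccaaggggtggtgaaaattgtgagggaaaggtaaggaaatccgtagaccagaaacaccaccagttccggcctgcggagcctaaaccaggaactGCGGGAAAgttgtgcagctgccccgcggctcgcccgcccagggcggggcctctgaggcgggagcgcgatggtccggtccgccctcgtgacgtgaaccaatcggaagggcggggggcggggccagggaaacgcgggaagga
The word starts 67 bases before the start in *Cdc25a* and 140 bases before it in *Cdk2*. Any of the 4 words was in 1.86% of the 32851 windows. *Cdc25a* also rose under the virgin label, where *Cdk2* and *Ccne1* were not called. A match describes letters and not binding, and whether E2F factors act on these genes here was not tested. The *Ccne1* window held neither an E2F word nor CACGTG, and the *Cdk6* window held 1 CACGTG.

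Acinar markers moved with treatment, and beside them *Ccnd1*, *Ccne2*, *Myc* and *Cdc25a* did too. In virgin S-961 3, which had the lowest acinar sum of the S-961 libraries (1744 CPM), *Myc* was at 40.0 CPM, *Ccnd1* at 168 CPM, *Cdc25a* at 37.1 CPM and *Ccne2* at 8.09 CPM, each above all untreated libraries. In multipara S-961 3, with an acinar sum of 7867 CPM, *Ccnd1* and *Cdc25a* were the lowest of the S-961 libraries at 119 and 20.9 CPM. Every S-961 library had an acinar sum above those of the untreated libraries (106 to 169 CPM), so acinar content and treatment cannot be told apart here. The part of acinar RNA in the differences between treated and untreated libraries was not tested.

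**Figure D4:**
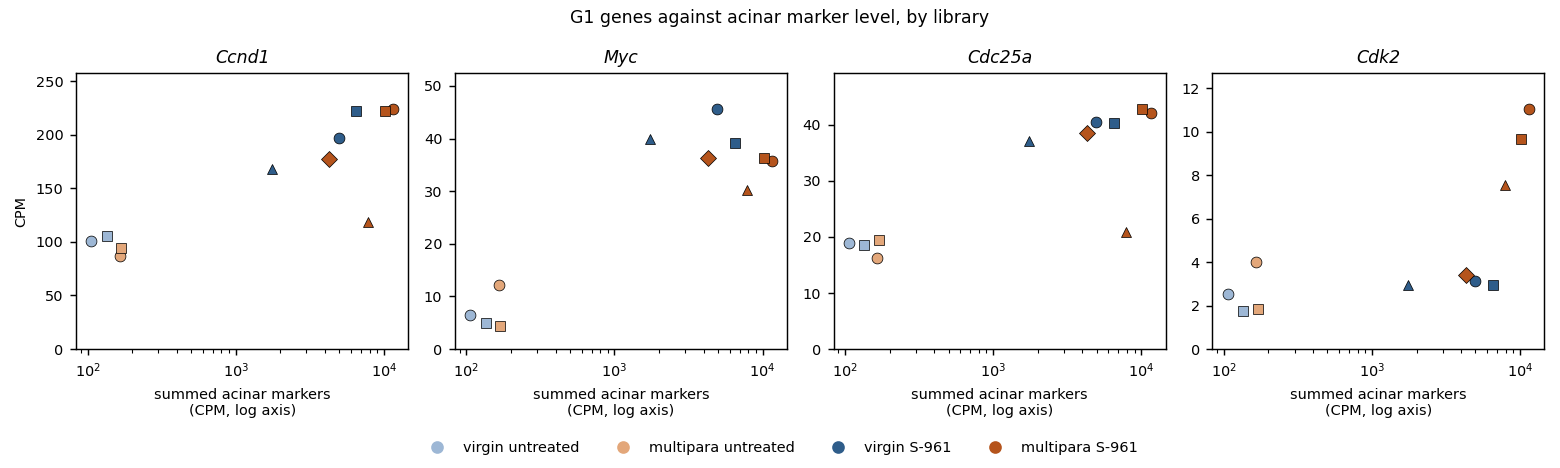
CPM of *Ccnd1*, *Myc*, *Cdc25a* and *Cdk2* (y axes from 0) against the summed CPM of 10 acinar markers (log axis), one point per library. The untreated libraries sit at 106 to 169 CPM of acinar markers and the S-961 libraries at 1744 to 11547 CPM, and the library with the lowest acinar sum among the latter had *Myc* at 40.0 CPM.

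The comparison of multipara with virgin libraries after S-961 asks whether past pregnancies altered the G1 genes under insulin receptor blockade. None of the 10 genes was called, and 0 of all 16752 genes tested were called by edgeR. At an unadjusted p under 0.05 there were 3 of the 10 (*Cdk2*, *Ccne2* and *Myc*) and 9.63% of all genes. *Cdk2* was above and *Myc* below without overlap of the libraries, where 8.85% of all genes did not overlap, 5.24% above and 3.61% below. DESeq2 called 1 of the 10 genes, *Cdk2*, and 358 genes higher (2.14%) and 11 lower (0.0657%) of all genes.

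*Cdk2* had the largest difference between the parity labels after S-961, in the direction opposite to the one the paper reports. Multipara S-961 1, 2 and 3 were at 11.03, 9.69 and 7.54 CPM, while multipara S-961 4 at 3.40 CPM lay near the 2.94 to 3.12 CPM of the virgin libraries. The log2 fold change was 1.40 (95% interval 0.57 to 2.23, unadjusted p = 0.00403, adjusted p = 0.316). With any 1 of the other 6 libraries left out it was 1.20 to 1.43 and not called (adjusted p from 0.474 to 0.786). Without multipara S-961 4, the multipara library nearest to the virgin level, it was 1.67 (SE 0.20, adjusted p = 0.00604), and since that library was the low one, this value is a description.

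Of the E-type cyclin genes, *Ccne2* differed by 0.78 (SE 0.33, adjusted p = 0.489) and *Ccne1* by 0.76 (SE 0.44, adjusted p = 0.624) on the log2 scale, and neither was called. Multipara S-961 1 and 2 were above all virgin libraries for both, and multipara S-961 4 was within the virgin range for both. *Myc* differed by -0.26 (SE 0.11, adjusted p = 0.519). The D-type cyclin genes and *Cdk4* were close to 0, with *Ccnd1* at -0.07 (95% interval -0.56 to 0.43), *Ccnd2* at -0.18 (-0.58 to 0.22), *Ccnd3* at 0.01 (-0.25 to 0.26) and *Cdk4* at -0.01 (-0.34 to 0.33). *Cdk6* was at 0.43 (-0.27 to 1.13) and *Cdc25a* at -0.12 (-0.62 to 0.38). The median over the 10 genes was -0.00147 and that over all genes tested was -0.00471.

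Genes of cells in cycle stood in the same libraries as high *Cdk2*. *Mki67*, a marker of cycling cells, was at 93.9, 65.5, 43.5 and 3.93 CPM in multipara S-961 1 to 4 and at 3.43, 13.8 and 3.04 CPM in the virgin S-961 libraries. *Ccna2*, the S phase cyclin gene, was at 34.2, 33.5, 15.3 and 3.10 CPM against 3.06, 5.04 and 2.94 CPM, and *Cdk1*, the mitotic kinase gene, at 26.0, 33.7, 11.01 and 0.77 CPM against 1.30, 1.39 and 0.71 CPM. For each, multipara S-961 1, 2 and 3 lay above the virgin range and multipara S-961 4 within it. The differences, 2.94 for *Mki67* (SE 0.94), 2.56 for *Ccna2* (SE 0.70) and 3.98 for *Cdk1* (SE 1.02), were not called (adjusted p = 0.366, 0.316 and 0.316). Acinar sums were 4283 to 11547 CPM in the multipara and 1744 to 6521 CPM in the virgin libraries, and stromal sums were 124 to 281 CPM and 63.3 to 67.6 CPM. With the mean log2 CPM of the acinar markers as a covariate the *Cdk2* difference was 0.95 (SE 0.48), and the part of stromal RNA was not tested.

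Without S-961, no difference between multipara and virgin libraries was called in any of the 10 genes by edgeR. Of all 15813 genes tested 0 were called, and 5.62% had an unadjusted p under 0.05, among which were 0 of the 10. DESeq2 called 0 of the 10, and 22 genes higher and 34 lower of all genes. The adjusted p-values of the 10 by edgeR ran from 0.719 to 0.982. *Cdk4* was above and *Ccnd1* and *Ccnd2* were below without overlap, where 36% of all genes did not overlap with 2 libraries in each group, 17.3% above and 18.8% below. The log2 fold changes were 0.06 for *Cdk4* (95% interval -0.13 to 0.25), -0.18 for *Ccnd1* (-0.37 to 0.01) and -0.30 for *Ccnd2* (-0.70 to 0.10).

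The widest untreated differences rested on multipara untreated 1. *Cdk6* differed by 1.60 (SE 0.94) and *Myc* by 0.55 (SE 0.54), and without that library they were -0.44 and -0.41. *Cdk6* was at 4.33 CPM, *Myc* at 12.2 CPM and *Mki67* at 38.6 CPM in it, against 0.63, 4.41 and 2.14 CPM in multipara untreated 2. Its macrophage, lymphocyte and red cell markers were high as given above, and their part in these values was not tested. Without multipara untreated 2, *Cdk6* (2.37) and *Myc* (1.09) were called higher and *Ccnd2* (-0.50) lower, on the assumption that the lone library varied like the virgin ones. In that fit 8.86% of all genes were higher and 1.52% lower.

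The difference between the parity effects with and without S-961 was tested as an interaction. None of the 10 genes was called, 0 of all genes were called, and 6.56% of all genes, with 0 of the 10 among them, had an unadjusted p under 0.05. DESeq2 called 0 of the 10, and 59 genes higher and 20 lower of all genes. The widest values were -1.15 for *Cdk6* (95% interval -3.03 to 0.72), 0.94 for *Cdk2* (-0.47 to 2.36) and -0.81 for *Myc* (-1.74 to 0.13), with adjusted p of 0.853, 0.837 and 0.777. For *Ccnd1* the value was 0.11 (-0.62 to 0.84), for *Cdk4* -0.07 (-0.54 to 0.40) and for *Cdc25a* -0.05 (-0.82 to 0.72). The S-961 effects of the 2 parity labels were therefore not shown to differ, and for *Cdk6*, *Cdk2*, *Myc*, *Ccne1* and *Ccne2* the interval reached past 1 on the log2 scale in at least 1 direction.

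Genes that act on or after these cyclins and kinases were counted in 8 lists. In both comparisons of parity and in the interaction 0 genes of any list were called by edgeR. After S-961, 45 of the 108 list genes had an unadjusted p under 0.05 between parity labels and DESeq2 called 24 of them higher and 0 lower, where over all genes 9.63% had such a p and DESeq2 called 2.14% higher and 0.0657% lower. Without S-961 there were 4 of 101 at an unadjusted p under 0.05, against 5.62% of all genes, and in the interaction 3 of 108, against 6.56%, and DESeq2 called 0 list genes in each. With S-961 against no treatment, the pocket proteins and E2F factors, which the G1 kinases act on, had 5 of 13 genes higher and 0 lower under each label, with medians of 0.32 and 0.86. Of all genes tested, 18.9% and 18.2% were higher and 17.7% and 19.5% lower under the virgin and the multipara label, with medians of -0.04 and 0.03, and the counts of each list below stand against these. Under the virgin label *Rbl1*, the gene of the pocket protein p107, was higher by 1.24 (SE 0.34, adjusted p = 0.0152) and *E2f3* by 1.18 (SE 0.28, adjusted p = 0.00851). Under the multipara label *E2f7*, a repressive E2F gene, was higher by 3.58 (SE 0.93, adjusted p = 0.0124) and *Tfdp1*, the gene of an E2F partner, by 1.25 (SE 0.21, adjusted p = 0.00128). *E2f7* was low, at 0.19 to 0.71 CPM in all untreated and 0.58 to 8.48 CPM in all S-961 libraries, with overlap. *E2f1* itself was not called (0.18, adjusted p = 0.731, and 0.86, adjusted p = 0.0781).

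The CDK inhibitors had 1 of 7 genes higher and 1 lower under each label, with medians of 0.29 and -0.04. *Cdkn2b*, which codes for the CDK4 and CDK6 inhibitor p15, fell under both labels by 1.71 (SE 0.34, adjusted p = 0.00322) and by 1.69 (SE 0.31, adjusted p = 0.00221) on the log2 scale. It was at 2.90 to 7.39 CPM in S-961 libraries and at 11.3 to 15.1 CPM in untreated libraries, without overlap. *Cdkn1b*, which codes for p27, rose by 0.37 (SE 0.11, adjusted p = 0.0190) under the virgin label, and *Cdkn2c*, which codes for p18, by 1.19 (SE 0.37, adjusted p = 0.0269) under the multipara label.

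Of 15 genes of CDK activation and cyclin turnover, 2 were higher and 1 lower under the virgin label and 3 higher and 2 lower under the multipara label, with medians of -0.06 and 0.49. *Wee1*, the gene of an inhibitory kinase of CDK1 and CDK2, rose by 0.79 (SE 0.20, adjusted p = 0.0107) and 1.43 (SE 0.20, adjusted p = 0.000503). *Fbxo31*, which codes for a ubiquitin ligase subunit that targets cyclin D1, fell by 1.11 (SE 0.17, adjusted p = 0.000965) and by 1.04 (SE 0.16, adjusted p = 0.000923) on the log2 scale. *Cdk7*, the CDK-activating kinase gene, rose by 1.08 (SE 0.29, adjusted p = 0.0155) under the virgin label. Under the multipara label *Skp2*, the gene of the ligase subunit that targets p27, rose by 1.87 (SE 0.41, adjusted p = 0.00512) and *Cul1*, the scaffold gene of that ligase, fell by 0.39 (SE 0.10, adjusted p = 0.0141).

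Genes of the later phases were seldom called by edgeR between S-961 and untreated libraries. Of 19 S phase genes 0 were higher and 1 lower under the virgin label, and 1 was higher and 1 lower under the multipara label, with medians of 0.15 and 1.37. DESeq2 called 0 higher and 1 lower under the virgin label and 6 higher and 1 lower under the multipara label, where it called 20.3% of all genes higher and 20.9% lower. *Gins2*, a replication helicase subunit gene, fell by 0.81 (SE 0.17, adjusted p = 0.00411) and by 0.66 (SE 0.16, adjusted p = 0.00862), and *Pola1*, a DNA polymerase subunit gene, rose by 1.53 (SE 0.51, adjusted p = 0.0380) under the multipara label. Of 11 G2/M genes 0 were called under either label by edgeR or DESeq2, with medians of -0.16 and 2.05 and with 0 and 1 at an unadjusted p under 0.05. Under the multipara label 11 of the 19 S phase genes and 7 of the 11 G2/M genes were called higher without multipara S-961 4, where 18% of all genes were higher and 17.8% lower. With any 1 of the other 10 libraries left out, 0 to 1 of each list were called higher.

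Of the 19 S phase genes, 19, 19, 18 and 3 were above all virgin S-961 libraries in multipara S-961 1, 2, 3 and 4, and of the 11 G2/M genes 11, 11, 11 and 1 were. *Cdk2* was also highest in the first 3 of these libraries. Over all genes tested, 5.24% were above the virgin libraries in all 4 multipara libraries. The share for each library alone was not computed, so the counts per library are descriptions. Between parity labels after S-961 the median log2 fold changes were 1.85 for S phase genes and 3.86 for G2/M genes, against 0.65 and 1.66 without S-961. The medians over all genes were -0.00471 after S-961 and 0.02 without it. Without S-961, 13 S phase and 11 G2/M genes were called higher when multipara untreated 2 was left out, where 8.86% of all genes were, and 0 when any 1 of the other 3 libraries was. Between parity labels after S-961, edgeR called 0 of the 19 S phase and 0 of the 11 G2/M genes. There 18 and 11 had an unadjusted p under 0.05, and DESeq2 called 12 and 7 higher. With any 1 of the other 6 libraries left out, edgeR called 0 of either list. Without multipara S-961 4, the library with the lowest values of the 4, it called 17 and 10 of them higher, 4 of the 13 pocket protein and E2F genes higher and 0 of the 17 mitogen inputs, where 2.69% of all genes were higher and 0.47% lower.

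*Myc* rose, while genes known as its growth targets moved both ways. Of 13 such genes 5 were higher and 2 lower under the virgin label and 3 higher and 3 lower under the multipara label, with medians of 0.78 and 0.25. *Srm*, the spermidine synthase gene, rose by 2.08 (SE 0.43, adjusted p = 0.00403) and 1.81 (SE 0.42, adjusted p = 0.00700), and *Cad*, a pyrimidine synthesis gene, by 1.77 (SE 0.33, adjusted p = 0.00218) and 1.25 (SE 0.31, adjusted p = 0.00973). The nucleolar protein gene *Npm1* fell by 0.84 (SE 0.22, adjusted p = 0.0143) and by 0.83 (SE 0.21, adjusted p = 0.0109). *Ncl*, which codes for nucleolin, fell by 0.61 (SE 0.17, adjusted p = 0.0157) under the virgin label, and *Fbl*, which codes for fibrillarin, by 1.03 (SE 0.23, adjusted p = 0.00597) under the multipara label.

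Of 13 genes of the MYC network 3 were higher and 1 lower under the virgin label and 2 higher and 0 lower under the multipara label, with medians of 0.35 and 0.29. *Mga*, the gene of a MAX partner, rose by 0.78 (SE 0.22, adjusted p = 0.0185) and 0.69 (SE 0.21, adjusted p = 0.0265). *Mlx*, the gene of a MAX-like factor, rose by 1.19 (SE 0.25, adjusted p = 0.00440) and *Zbtb17*, which codes for MIZ1, fell by 0.52 (SE 0.12, adjusted p = 0.00736) under the virgin label. *Mxd3*, the gene of another MAX partner, was higher by 3.52 (SE 1.26, adjusted p = 0.0482) under the multipara label, at 0.24 to 9.40 CPM in S-961 libraries and 0.063 to 0.71 CPM in untreated ones.

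Among 17 genes of the mitogen inputs to islet cells 4 were higher and 2 lower under the virgin label and 5 higher and 2 lower under the multipara label, with medians of 0.21 and 0.02. *Irs2*, an insulin receptor substrate gene, rose by 1.86 (SE 0.28, adjusted p = 0.000763) and 2.67 (SE 0.28, adjusted p = 0.000149), at 25.2 to 37.7 CPM in untreated and 104 to 224 CPM in S-961 libraries. *Irs1* rose by 2.06 (SE 0.37, adjusted p = 0.00177) and 1.95 (SE 0.36, adjusted p = 0.00211). *Akt2*, a kinase gene of the same pathway, fell by 0.72 (SE 0.16, adjusted p = 0.00555) and by 0.57 (SE 0.15, adjusted p = 0.0134). *Foxo1* fell by 0.71 (SE 0.24, adjusted p = 0.0373) under the virgin label and *Stat5a*, which codes for a transducer of prolactin signals, by 0.67 (SE 0.18, adjusted p = 0.0148) under the multipara label.

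**Figure D5:**
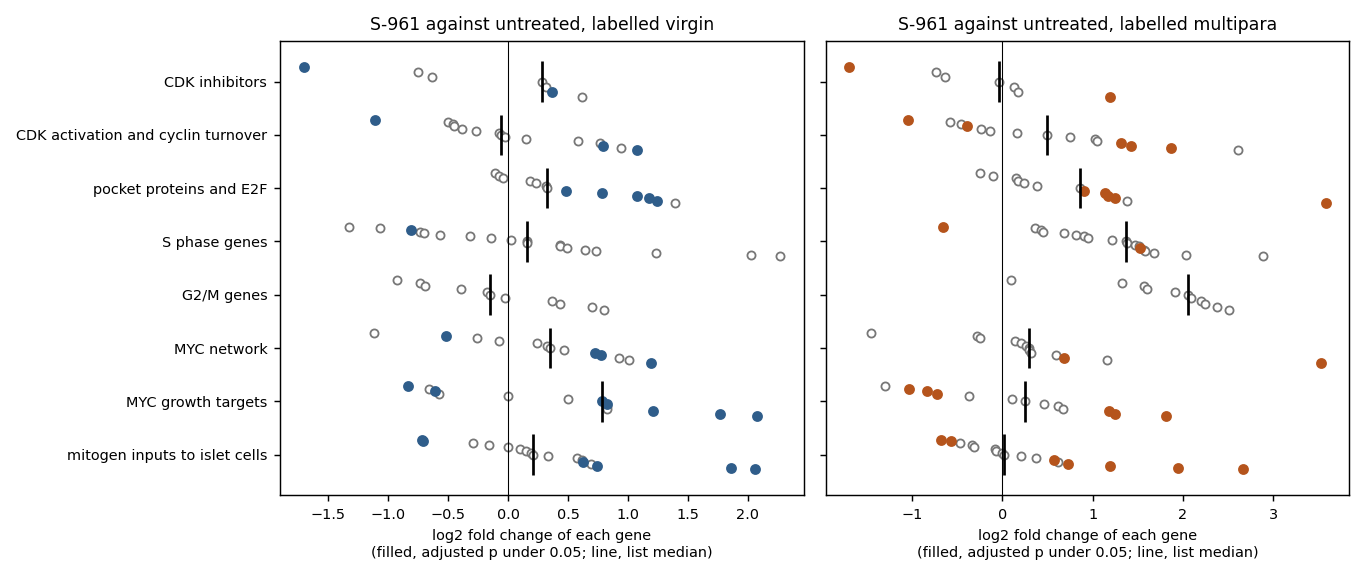
Log2 fold change (x axis) of every tested gene of the 8 lists, S-961 against untreated, under each parity label; filled points passed an adjusted p of 0.05 and the line is the median of the list. The pocket protein and E2F list had 5 filled points to the right of 0 and none to the left in each panel, and the G2/M list had no filled point, with medians of -0.16 and 2.05.

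The genes whose log2 CPM ran most like that of a G1 gene were listed over the 11 libraries among 11286 other genes. For *Ccnd1* they were *Gm2115*, *Asph* and *Cdc25a* (Pearson r of 0.98 each), for *Ccnd2* *Bace1*, *Pard3* and *Ptprd* (0.93, 0.93 and 0.91), for *Ccne1* *Cenpt*, *Tuba1c* and *Fam167a* (0.96, 0.95 and 0.95) and for *Myc* *Rbm25*, *Arf6* and *Tgs1* (0.99, 0.98 and 0.98). These values are descriptions, since the libraries share treatment, depth and cell make-up. *Cdc25a* was the only other G1 gene among the 12.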

How the data were processed

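Poly(A) RNA of islets was made into libraries with a stranded kit, per the labels. The authors deposited 1 table per library, which holds estimated counts per gene (the expected counts of RSEM) without normalization. The submitters' processing notes name STAR, RSEM and the builds GRCm38 and mm10. Their versions, and whether counting used the strand, are not given in the sources used here. Therefore reads of *Ccnd1*, *Ccnd2*, *Ccnd3*, *Cdk4* and *Ccne2* and of genes that overlap them on the other strand may not be told apart, and for these 5 genes the values were not whole in 10 or 11 libraries. All 55536 gene identifiers matched GENCODE M21, which gave the coordinates and the exon lengths.

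Counts were rounded and tested with edgeR 4.0.16 in R 4.3.3 (TMM scaling, filterByExpr with a minimum count of 10 and a minimum total of 15, quasi-likelihood test), with Benjamini-Hochberg adjustment over all genes tested and a threshold of 0.05. The parity comparisons used their own libraries, and the S-961 comparisons and the interaction used all 11. The S-961 comparisons share no library with each other, but each shares its libraries with the parity comparisons. The scripts were tested on simulated counts. No 2 libraries agreed within sampling noise. The biological coefficient of variation was 0.266 to 0.293, so that the spread between libraries and not the depth limited all but the lowest genes. Ratios took a pseudocount of 0.5 CPM and likeness took genes with a mean log2 CPM of at least 2 (prior count 2). DESeq2 1.42.0, other scaling, no filter, other sets of libraries, an acinar covariate and the replicate number as a block were alternatives. Figures used matplotlib 3.10.9.

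Named genes were the 10 genes, *Mki67*, *Ccna2*, *Cdk1*, *E2f1* and, per list, comparison and direction, up to 2 called genes with the largest log2 fold change. *Lrrc55*, the insulin genes and the overlapping genes were named outside this rule, after their values were seen. The members and lists were chosen with earlier results of these data known.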

Additional observations from a re-analysis of the deposited data

Results flagged for a closer look

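*Myc* CPM in the 4 libraries labelled multipara S-961 held 1 library apart from the others: replicate 3 was at 30.1 CPM, and the other 3 were at 35.7 to 36.4 CPM. The gap to the nearest library was 0.892 of the range of the group, above Dixon's critical value of 0.829 for 4 samples. This was 1 of 13 values examined, and chance marks about 1 in 20 groups. *Ccnd1* (119 CPM), *Cdc25a* (20.9 CPM), *Ccnd3* (36.9 CPM) and *Cdk4* (94.7 CPM) were also lowest in that library among the 4.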

How the results depend on the processing

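Of 730 fold changes of the 10 genes under alternatives, 639 kept their direction and their side of the threshold, 50 turned in direction, 30 lost and 11 gained a call. The number of the 10 genes called between parity labels after S-961 was 1 with DESeq2, 1 with the replicate block and 0 to 1 when 1 library was left out. Without S-961 it was 0 to 3 when 1 library was left out. For S-961 against untreated it was 7 with the parity labels not used and 1 to 4 without 1 library under the virgin label, and 4 with libraries of that parity only, 4 without both multipara S-961 4 and multipara untreated 1, and 4 to 7 without 1 library under the multipara label. For the interaction it was 0 throughout. Values near 0 turned: between parity labels after S-961, *Ccnd3* to -0.00379 with DESeq2 size factors, -0.00384 with DESeq2, -0.0014 with no filter, -0.0113 with the block and -0.0014 with all libraries, and *Cdk4* to 0.0264 with the block and 0.0204 with the acinar covariate; without S-961, *Ccne1* to -0.0639 with the block; with S-961, *Cdk6* to -0.0229 with the parity labels not used and 0.0165 with the block; in the interaction, *Ccnd3* to 0.0196 with no filter. Without both multipara S-961 4 and multipara untreated 1, *Ccnd2* was -0.117 and *Cdk6* 1.57 for S-961 under the multipara label, and *Ccnd2* -0.168, *Ccnd3* 0.162, *Cdk6* 0.865 and *Myc* 0.106 in the interaction. With 1 library left out, ranges that crossed 0 were, between parity labels after S-961, *Ccnd1* -0.17 to 0.10, *Ccnd3* -0.037 to 0.074, *Cdk4* -0.11 to 0.075 and *Cdc25a* -0.20 to 0.077. Without S-961 they were *Ccnd3* -0.20 to 0.19, *Cdk6* -0.44 to 2.37, *Ccne1* -0.96 to 0.70, *Ccne2* -0.13 to 0.57, *Cdk2* -0.26 to 0.91, *Myc* -0.41 to 1.09 and *Cdc25a* -0.19 to 0.030. With S-961 they were *Ccnd2* -0.027 to 0.17 under the virgin label, and *Ccnd2* -0.023 to 0.38 and *Cdk6* -1.23 to 1.54 under the multipara label. In the interaction they were *Ccnd2* -0.074 to 0.33, *Ccnd3* -0.18 to 0.18, *Cdk4* -0.18 to 0.0053, *Cdk6* -1.93 to 0.84, *Myc* -1.34 to 0.13 and *Cdc25a* -0.17 to 0.14. Log2 ratios that crossed 0 were *Ccnd1* to *Ccnd2* between parity labels after S-961 (-0.14 to 0.29) and *Ccne1* to *Ccne2* with S-961 (-0.28 to 0.18) and between those labels (-0.28 to 0.076). Calls over all genes between parity labels after S-961 were 0, 311 higher and 35 lower with the block and 525 without multipara S-961 4. Without S-961 they were 0, 2 higher and 1 lower with no filter, 57 without multipara untreated 1 and 1749 without multipara untreated 2. In the interaction they were 0, 14 higher and 20 lower with the block, 2 and 2 with no filter, and 31 and 19 without both libraries. For S-961 they were 6570 under the virgin label, 3503 and 3053 without virgin untreated 1 and 2, and 6766 under the multipara label, 3618 without multipara untreated 1, and 2112 higher and 2315 lower with that parity only. The replicate numbers were not taken to pair the libraries, since no same-numbered pair after S-961 had a correlation over 0.1 (0.0588, 0.0133 and 0.0942). The untreated pairs had 0.28, a value that is the same for both pairs by construction, and pairs across treatments had -0.146 to 0.123. The low level of *Cdk6* and *Cdk2* and the 2 libraries per untreated group limit precision. The cause of these changes was not tested.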
